A study of Mus musculus with 2 samples.

Results

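The collagen chains are the genes whose symbol in the platform's probe annotation reads Col, a type number, the letter a and a chain number. This rule took 43 of 19321 named genes, measured by 50 of 23473 probes. They were grouped by structure into 11 fibrillar chains, 6 type IV chains of the basement membrane, 6 type VI chains that form beaded filaments, 9 FACIT chains (fibril-associated collagens with interrupted triple helices) and 11 others. Their signal was compared in gastrocnemius, a calf muscle, between 1 sample of female Pdgfra-CreER:R26-DTA muscle, called depleted here, and 1 of female wild type:R26-DTA muscle, called control, which carries the R26-DTA allele too. In the depleted sample tamoxifen lets Cre, made where the Pdgfra promoter is active, switch on diphtheria toxin A, which kills the cell. In both groups, 10 weeks old, tamoxifen was given into the abdomen from 9 weeks of age on 5 days, and the tissue was collected and frozen 2 days later than the final dose. The control's label names no CreER, so CreER and depletion cannot be told apart. The study asked which genes differ in muscle after loss of PDGFRα-positive mesenchymal progenitors, and cell numbers were not analysed here.

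Collagens are secreted proteins in which 3 chains wind into a triple helix. Fibrillar collagens I, III and V build the tensile fibrils between muscle fibres, type VI forms beaded filaments beside the fibre surface, type IV forms the sheet of the basement membrane, and FACIT collagens coat fibrils. In muscle, interstitial fibroblasts and mesenchymal progenitors are known as a main source of types I, III and VI, while endothelial, mural and muscle cells also make type IV.

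Each group held 1 array, so no value has a replicate or a p-value, and animal, array and group cannot be told apart. Log2 ratios are depleted over control on background-corrected, quantile-normalized spot intensities. Scanner values are spot medians in intensity units. Deposited values come from the authors' processed table, with a median of 25 on both arrays. The 2 positive control probes, each repeated in 24 spots, had SDs of 0.14 and 0.15 for the log2 ratio between the arrays, which covers spots but not animals or labelling. Their mean scanner values were 850.6 and 5668 on the control array and 1800 and 9837 on the depleted array. The sources used here do not say what these spots measure. All 10 myofibre markers (Acta1, Ckm, the myosin heavy chains and others) were above background, with deposited values of 45140.8 and 32396.5 for the fast myosin Myh4. Pdgfra itself, the marker of the targeted cells, stood at 273.1 on the control and 116.6 on the depleted array in deposited values, a log2 ratio of -0.94. From here on, a pair of values gives control first and depleted second.

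Collagen chains were mostly lower on the array of depleted muscle. In the normalized values the differences of 2-fold or more lay in types I, III and VI. All 43 chains were above background on at least 1 array and 41 on both. Of them 34 were lower and 9 higher, against 52.4% lower among all 18498 genes compared, and their median log2 ratio was -0.10 against -0.0036. Col1a2, Col3a1 and Col6a2 were at least 2-fold lower, 3 of 43 chains, against a background of 0.427% of all genes (79 lower and 91 higher, or 38 and 216 with scaling to the median). At least 1.5-fold lower were 7 chains, the same 3 with Col1a1, Col5a1, Col6a1 and Col8a2, against 1.52% of all genes. No chain was 1.5-fold or 2-fold higher in the normalized values, against 1.96% and 0.492% of all genes. In the deposited values 6 chains were at least 2-fold lower, against 2.15% of all genes, and these added Col1a1, Col5a1 and Col6a6 to the 3 named first. At least 1.5-fold lower in the deposited values were 15 chains, against 8% of all genes. They held the 7 chains above and added Col4a3, Col4a4, Col6a3, Col6a6, Col11a1, Col15a1, Col24a1 and Col25a1. Col25a1 was nearly level on the scanner, at 37.8 and 37.7. Its call rests on an empty depleted cell in the deposited values, set to 1.2 against 2.0 in control. Col7a1 and Col23a1 were at least 1.5-fold higher there, against 10% of all genes, and 0 chains were 2-fold higher, against 3.2%. Scaling to the median put only Col1a2 past 2-fold, at -1.07.

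**Figure D1:**
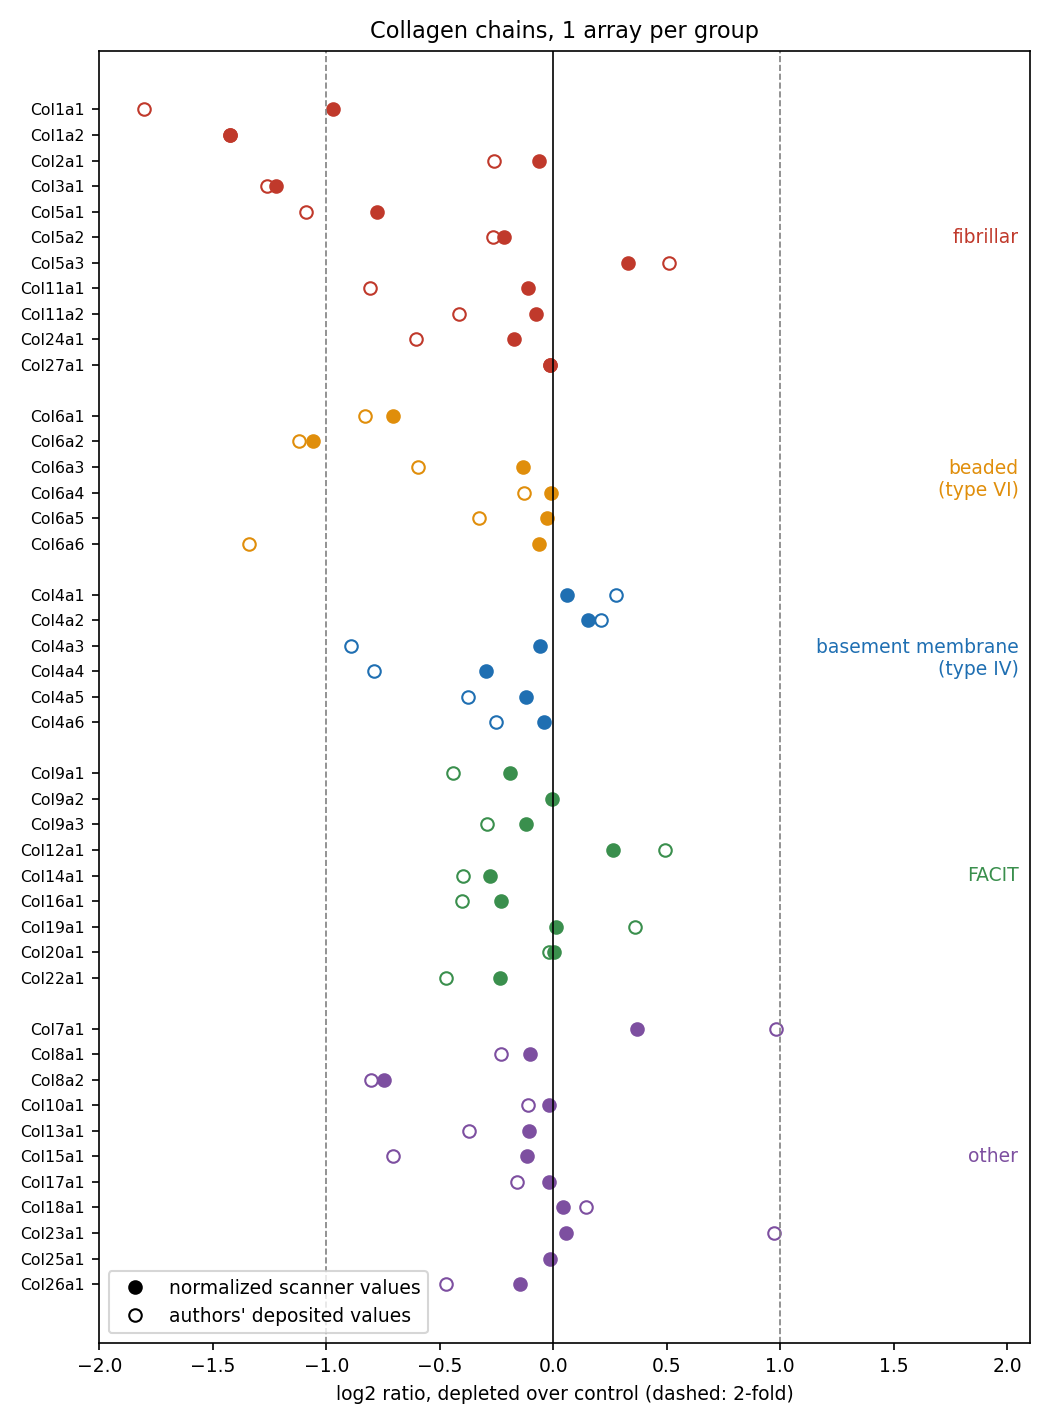
Log2 ratio (x axis, depleted over control) of each of the 43 collagen chains, grouped by class. Filled points are normalized scanner values and open points the authors' deposited values (Col9a2 and Col25a1 have none on the depleted array); the 7 chains at least 1.5-fold lower in the normalized values lie between -1.42 and -0.71, and the highest is Col7a1 at 0.37.

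Brightness set how far a chain's ratio could move, because the correction adds an offset of 50 that draws dim genes toward 0. The 22 chains at or above the median of all genes, by the mean of their log2 intensity on both arrays, had a median log2 ratio of -0.22. They ranged from -1.42 to 0.37, with 18 lower, against 51.7% of all genes that bright. The 9661 genes of that kind had a median of -0.0083. They held all 7 chains named above, 3 at least 2-fold lower against 0.818% of these genes and 7 at least 1.5-fold lower against 2.91%, with 0 chains as much higher against 0.942% and 3.73%. The 21 dimmer chains ranged only from -0.17 to 0.06 in normalized values, and 16 were lower, against 53.2% of all dimmer genes. In the deposited values, which carry no offset, 17 of these dimmer chains were lower, against 51.7% of all dimmer genes. The 17 include Col9a2 and Col25a1, whose empty depleted cells were set to 1.2. The median log2 ratio of the 21 dimmer chains in the deposited values was -0.33.

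**Figure D2:**
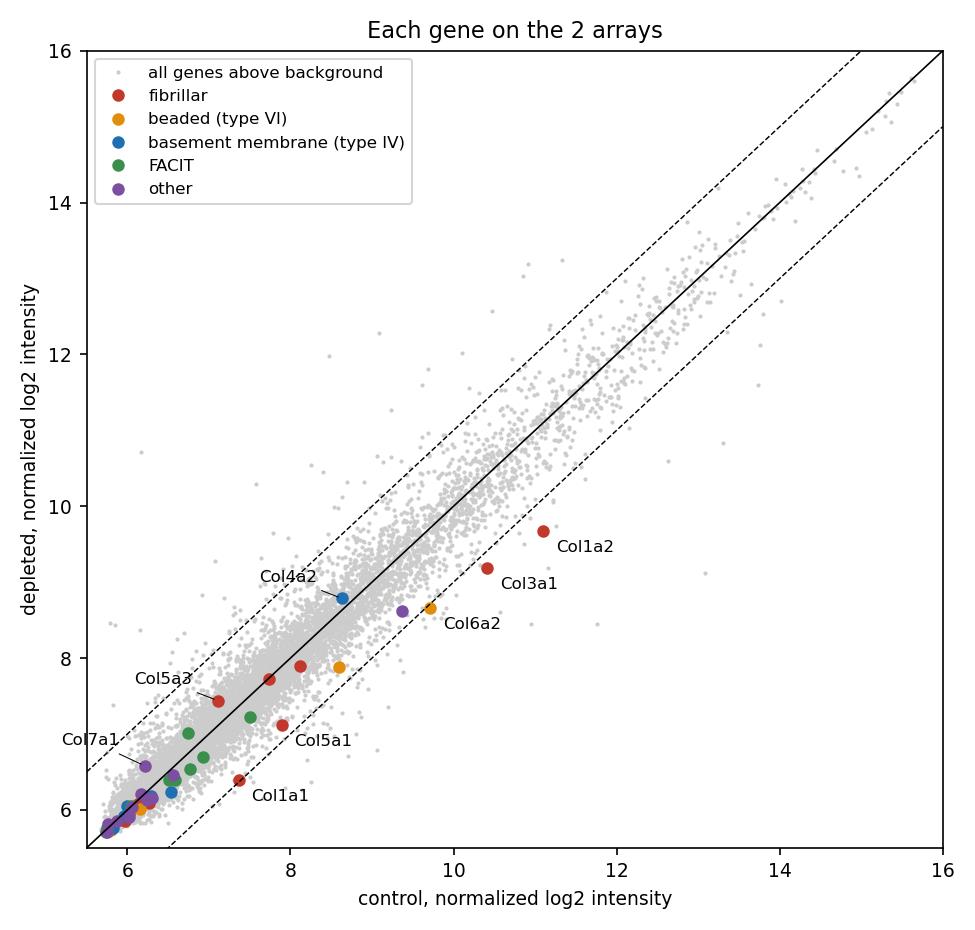
Normalized log2 intensity of each gene on the control array (x axis) and the depleted array (y axis); grey points are the 18498 genes above background and coloured points the collagen chains by class. The solid line marks equal values and the dashed lines 2-fold differences; Col1a2, Col3a1 and Col6a2 lie below the lower dashed line, and Col4a2, Col5a3 and Col7a1 lie above the solid line.

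The 250 bases before the start in RefSeq's annotation are shown for the chains of types I, III and VI among the 7 lower chains, where RefSeq's table holds a window, and for Col7a1, the chain with the highest quantile-normalized ratio, so that both ends of the range can be compared. Sequences run 5′ to 3′ on the gene's own strand. Capitals mark the CCAAT box, the TATAAA box and the GGGCGG box of Sp1-type factors on either strand, so that the reverse forms ATTGG and also TTTATA and also CCGCCC are marked. No marked motif overlaps another.
Col1a2, GRCm38.p6 chr6:4505368-4505617, plus strand: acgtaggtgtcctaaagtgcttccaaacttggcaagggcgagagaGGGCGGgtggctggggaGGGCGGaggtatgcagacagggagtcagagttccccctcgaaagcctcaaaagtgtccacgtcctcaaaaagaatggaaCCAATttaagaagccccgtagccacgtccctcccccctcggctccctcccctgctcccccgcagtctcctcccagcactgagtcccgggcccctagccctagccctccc
Col3a1, GRCm38.p6 chr1:45311288-45311537, plus strand: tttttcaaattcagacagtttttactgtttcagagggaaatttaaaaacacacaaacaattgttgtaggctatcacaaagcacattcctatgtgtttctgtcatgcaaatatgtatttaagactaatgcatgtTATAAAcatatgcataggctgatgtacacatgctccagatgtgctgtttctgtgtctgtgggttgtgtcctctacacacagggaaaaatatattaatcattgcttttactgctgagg
Col6a1, GRCm38.p6 chr10:76726045-76726294, minus strand: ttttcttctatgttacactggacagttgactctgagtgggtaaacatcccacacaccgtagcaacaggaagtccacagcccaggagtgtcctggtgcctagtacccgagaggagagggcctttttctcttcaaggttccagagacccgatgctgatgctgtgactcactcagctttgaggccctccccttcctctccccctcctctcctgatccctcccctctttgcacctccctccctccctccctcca
Col6a2, GRCm38.p6 chr10:76623631-76623880, minus strand: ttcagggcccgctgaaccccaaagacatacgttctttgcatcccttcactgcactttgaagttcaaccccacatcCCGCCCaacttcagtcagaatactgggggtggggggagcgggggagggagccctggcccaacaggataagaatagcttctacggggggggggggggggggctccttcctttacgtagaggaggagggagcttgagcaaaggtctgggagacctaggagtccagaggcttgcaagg
Col7a1, GRCm38.p6 chr9:108953336-108953585, plus strand: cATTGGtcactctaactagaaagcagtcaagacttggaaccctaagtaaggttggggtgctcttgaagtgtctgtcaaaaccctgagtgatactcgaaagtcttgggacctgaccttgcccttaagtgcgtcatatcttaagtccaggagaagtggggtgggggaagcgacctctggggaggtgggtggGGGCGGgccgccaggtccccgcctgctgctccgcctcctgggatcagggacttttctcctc
CCAAT was found in Col1a2 (109 bases before the start) and, as ATTGG, in Col7a1 (249 bases before). TATAAA was found in Col3a1 at 117 bases before the start. GGGCGG was found in Col1a2 at 205 and 188 bases before the start, in Col7a1 at 61 and, on the other strand, in Col6a2 at 175. The Col6a1 window held none of the 3 motifs. Among 27025 genes with a 250-base window, 34.5% held CCAAT, 13.0% TATAAA and 32.9% GGGCGG. Of the 35 collagen chains with a window, 12 (34.3%) held CCAAT, 5 (14.3%) TATAAA and 21 (60.0%) GGGCGG. No motif of the 3 was found in all 4 windows of lower chains, and a match describes letters only.

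Types I and III, the main fibril formers of muscle connective tissue, held the 3 lowest fibrillar ratios. Col1a2, the alpha2 chain of type I collagen (probe M200001767), had scanner values of 1833 and 944.0 and deposited values of 2286 and 851.3, a log2 ratio of -1.42 or 2.68-fold lower. Col1a1, the alpha1 chain that assembles with it (probe M200004448), had scanner values of 132.6 and 74.3 and deposited values of 122.6 and 35.1. Its log2 ratio was -0.97, short of 2-fold, while its deposited values were 3.49-fold lower. Both type I chains were thus lower, in each of the 10 ways the values were computed. Col3a1, whose homotrimer forms the thin fibrils of the endomysium (probe M300004916), had scanner values of 1143 and 663.2 and deposited values of 1408.5 and 587.7, a log2 ratio of -1.22. Its dimmer probe (M400007254) had deposited values of 39.6 and 15.1 and a log2 ratio of -0.42. In deposited values the probes were 2.40-fold and 2.62-fold lower, so the probes lay closer together there.

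Type V collagen, which starts fibrils and limits their width, was split among its chains. Col5a1 had scanner values of 195.2 and 138.4 and deposited values of 202.3 and 95.2, with a log2 ratio of -0.78. Col5a2, the usual partner of Col5a1, had scanner values of 229.5 and 254.7, deposited values of 245.9 and 204.4 and a log2 ratio of -0.22, which scaling to the median put at 0.01. Col5a3, a chain of more restricted expression, was higher, with scanner values of 109.7 and 178.9, deposited values of 93.5 and 133.2 and a log2 ratio of 0.33. It was the only fibrillar chain above 0 in the normalized values and was above 0 in all 10 computations. The 3 chains of 1 collagen type thus differed by 1.11 between the lowest and the highest log2 ratio, although differences between genes of 1 pair of arrays were not tested.

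The remaining fibrillar chains lay close to 0 in the normalized values. In the deposited values Col11a1 and Col24a1 were 1.75-fold and 1.52-fold lower, and Col2a1, Col11a2 and Col27a1 were less than 1.5-fold lower. Col27a1 had deposited values of 175.9 and 174.2 and a log2 ratio of -0.01, or 0.20 with scaling to the median. Col24a1, at deposited values of 27.2 and 17.9, had a log2 ratio of -0.17. The cartilage chains Col2a1 (20.1 and 16.8), Col11a1 (11.9 and 6.8) and Col11a2 (14.4 and 10.8) were dim in deposited values and had log2 ratios of -0.06, -0.11 and -0.07. Fibrillar chains below 0 numbered 10 of 11, against 52.4% of all genes. Of them 2 were past 2-fold and 4 past 1.5-fold, against 0.427% and 1.52% of all genes lower by as much. The class median was -0.17, or -0.60 in the deposited values.

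Type VI collagen, which links the basement membrane to the interstitial matrix and is affected in Ullrich and Bethlem myopathies of humans, was lower in its bright chains. Col6a2 (probe M400000370) had scanner values of 700.9 and 451.8 and deposited values of 845.7 and 389.3, a log2 ratio of -1.06. Col6a1 (probe M200000943), its neighbour in the genome and partner in the molecule, had scanner values of 318.4 and 252.4 and deposited values of 359.1 and 202.2, a log2 ratio of -0.71. Col6a3, the large chain that completes the same molecule, was dim, with deposited values of 21.0 and 13.9 and a log2 ratio of -0.13, so this probe gives little range to compare it with the other chains. Col6a4 (3.5 and 3.2), Col6a5 (5.4 and 4.3) and Col6a6 (4.3 and 1.7), which can take the place of Col6a3, lay near the blank spots in deposited values and had log2 ratios from -0.06 to -0.01. All 6 type VI chains were below 0, against 52.4% of all genes, with a median of -0.10, or -0.71 in the deposited values. The 2.53-fold lower deposited value of Col6a6 rests on scanner values of 39.6 and 38.7, against background limits of 37.4 and 38.5.

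Type IV collagen of the basement membrane showed no chain past 1.5-fold in the normalized values and 2 in the deposited values, Col4a4 and the dim Col4a3, which were 1.73-fold and 1.86-fold lower there. Col4a2, a chain of the basement membrane around every muscle fibre and vessel, had scanner values of 329.0 and 496.1, deposited values of 372.6 and 431.0 and a log2 ratio of 0.15. Its partner Col4a1 was dim, with deposited values of 13.2 and 16 and a log2 ratio of 0.06. These neighbouring genes, which are transcribed away from each other, were above 0 in all 10 computations. The other 4 chains, of the networks best known from kidney, were below 0. Col4a4 had deposited values of 44.2 and 25.6 and a log2 ratio of -0.30, with 0.00 at its dimmer probe (deposited 2.4 and 2.5). Col4a5 had deposited values of 28.9 and 22.3 and a log2 ratio of -0.12. Col4a3 (5.2 and 2.8) and Col4a6 (11.2 and 9.4) were dim in deposited values, with log2 ratios of -0.06 and -0.04. The class median was -0.05, or -0.31 in the deposited values.

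FACIT chains, which sit on the surface of fibrils, had small differences in both directions. Col14a1, which decorates fibrils and is a fibroblast product in many tissues, had deposited values of 140.5 and 106.8 and a log2 ratio of -0.28. Col12a1, a related chain of tendon and muscle matrix, went the other way, with deposited values of 60.0 and 84.5 and a log2 ratio of 0.26. Col22a1, a chain of the junction between muscle and tendon, had deposited values of 62.2 and 44.9 and a log2 ratio of -0.23. Col16a1 had deposited values of 75.6 and 57.3 and a log2 ratio of -0.23. Of the type IX chains, which are best known from cartilage, Col9a1 (47.6 and 35.0) and Col9a3 (43.0 and 35.1) had log2 ratios of -0.19 and -0.12. Col9a2 (deposited 1.6 in control) was below the background limit on the depleted array. Col19a1 (2.1 and 2.7) and Col20a1 (15.7 and 15.5) had log2 ratios of 0.01 and 0.00, and their sign changed with the scaling. Of the 9 FACIT chains 6 were lower, against 52.4% of all genes, with a median of -0.12 and none past 1.5-fold.

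Among the other chains, both directions appeared with the network and anchoring collagens. Col8a2, a short chain of the hexagonal networks known from vessels and the cornea (probe M400005422), had scanner values of 554.5 and 439.2 and deposited values of 659.5 and 377.5, a log2 ratio of -0.75. Its relative Col8a1 was close to 0 at each of its 3 probes, with log2 ratios of -0.10, -0.07 and -0.06 and deposited values of 46.1 and 39.3 at the brightest. Col7a1, which forms the anchoring fibrils of the skin (probe M400000848), had the highest ratio of any collagen in the quantile-normalized values, with scanner values of 55.4 and 88.1, deposited values of 24.3 and 48.0 and a log2 ratio of 0.37. In deposited values it was 1.98-fold higher, while scaling to the median put Col5a3 (0.51) and Col4a2 (0.44) above it (0.42). The transmembrane chains Col13a1 (25.7 and 19.9) and Col23a1 (2.5 and 4.9), both dim in deposited values, had log2 ratios of -0.11 and 0.06. Col15a1 (14.5 and 8.9) and Col18a1 (21.9 and 24.2), the multiplexins of the basement membrane zone, had log2 ratios of -0.12 and 0.05. Col26a1 had deposited values of 29.4 and 21.2 and a log2 ratio of -0.15. Col10a1 of growth cartilage (-0.02) and Col17a1 of hemidesmosomes (-0.02) were dim, and Col25a1 (deposited 2.0 in control) was below the background limit on the depleted array. The median of these 11 chains was -0.02.

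**Figure D3:**
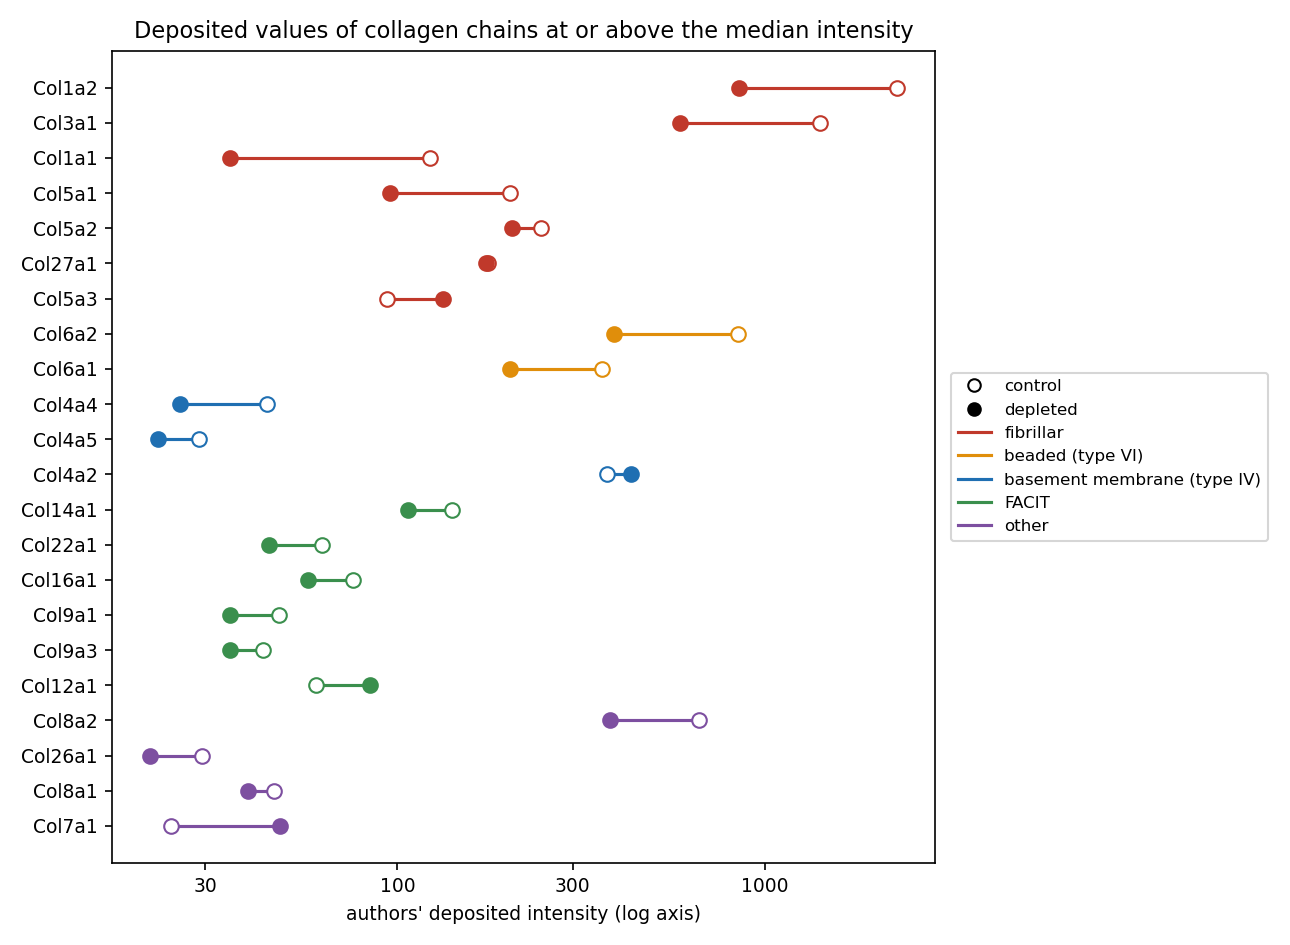
The authors' deposited intensity (x axis, log scale) of the 22 brighter chains, with control as open and depleted as filled points joined by a line, coloured by class. Depleted lies left of control for 18 chains and right of it for Col5a3, Col4a2, Col12a1 and Col7a1; levels of different probes cannot be compared.

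Chains that neighbour each other in the genome did not have like ratios in each case. Col6a2 and Col6a1 (-1.06 and -0.71) were both among the lowest, and Col4a1 and Col4a2 (0.06 and 0.15) were both above 0. Col3a1 and Col5a2, next to each other on the same chromosome, had log2 ratios of -1.22 and -0.22. Col4a6 and Col4a5 had log2 ratios of -0.04 and -0.12. Col4a1 and Col4a6 lay below the median intensity, so their ratios had little range.

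Genes that make, bind or sense collagen were set beside the chains, in lists made with earlier results of these data known. Of 26 measured genes of collagen synthesis and processing 16 were lower (61.5%, against 52.4% of all genes) and 10 higher, with a median of -0.03. At least 2-fold apart were 0, against 0.427% of all genes lower and 0.492% higher by as much. In the deposited values 2 were at least 2-fold lower, Pcolce2 and the dim Plod2 (2.8 and 1.4), against 2.15% of all genes. At least 2-fold higher there were 2, Lox and the dim Loxl4 (9.6 and 25.3), against 3.2% of all genes. The enhancers of procollagen cleavage Pcolce2 (deposited 399.8 and 178.5) and Pcolce (378.7 and 238.3) had log2 ratios of -0.97 and -0.58. P4ha1, a catalytic subunit of prolyl 4-hydroxylase, was at -0.38, while its partner P4hb and the collagen galactosyltransferase Colgalt1 were at 0.44 and 0.46. Lox, which crosslinks collagen, was dim in control muscle, with deposited values of 14.2 and 42.9 and a log2 ratio of 0.50. Ratios of this list lay on both sides of 0.

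Fibril-associated proteoglycans and regulators had the lowest median of the related lists, -0.44, with 10 of 12 genes lower, against 52.4% of all genes. At least 2-fold lower were 3, Lum, Kera and Dpt at -1.84, -1.41 and -1.23, against 0.427% of all genes. Sparc, a collagen-binding glycoprotein, and Ogn were at -0.67 and -0.63, and Dcn, the decorin gene, at -0.53. Fn1, the fibronectin gene, went the other way at 0.50 (deposited 573.3 and 861.6). Lum, Dpt and Dcn are also in the list of progenitor markers, and Kera and Fmod in that of tenocyte markers. Scaling to the median moved the median of this list to -0.16. Of the other 2 lists, 7 of 10 collagen receptors were lower, against 52.4% of all genes, with a median of -0.03. The discoidin receptor Ddr2 had the lowest ratio of the receptors, -0.36 (deposited 74.0 and 46.1). Itga11, an integrin subunit of fibroblasts, was at -0.11, and Itga10, Lair1, Mrc2 and Itga2 lay from -0.09 to 0.07. Of 9 genes of the TGF-beta route to collagen synthesis 7 were lower, against 52.4% of all genes, with a median of -0.12. Ccn2 was at -0.27, Smad2 at 0.27, Tgfb3 at -0.20, Tgfb2 at -0.16 and Smad7 at -0.12. Smad3 was at -0.24, with dim deposited values of 17.8 and 6.3.

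**Figure D4:**
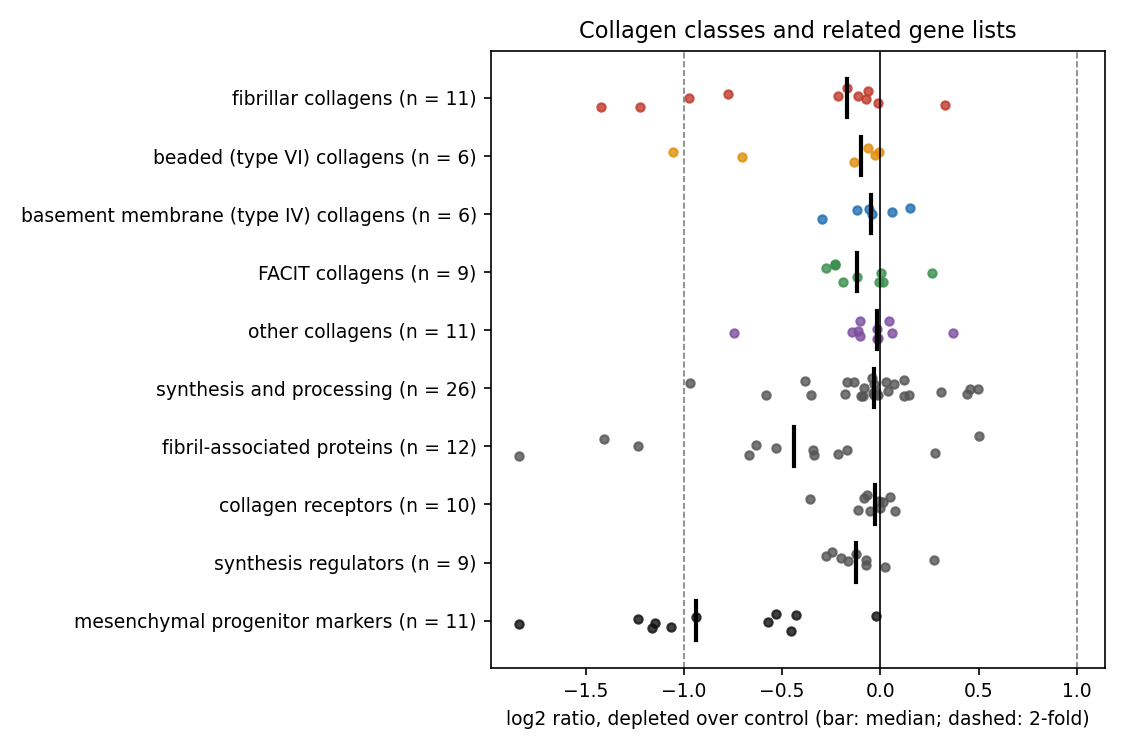
Log2 ratio (x axis, depleted over control) of each gene in the 5 collagen classes, 4 related gene lists and the mesenchymal progenitor markers (rows, with the number of genes); black bars are medians. Fibril-associated proteins (median -0.44) and progenitor markers (-0.94) lie lower than the other lists, and 4 fibrillar chains stand left of the rest of their class.

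Markers of several cell types differed between the arrays, some lists lower and others higher, and their part in the collagen values was not tested. Mesenchymal progenitor markers were lower in 11 of 11 measured genes, against 52.4% of all genes, with a median of -0.94. Of them 5 were past 2-fold, against 0.427% of all genes. Their summed deposited signal was 21106 in control and 10783 in depleted muscle. Gsn and Dcn held 82.9% and 83.9% of these sums, and the other genes summed to 3604 and 1738. In bulk tissue, fewer cells of a type and less RNA per cell cannot be told apart. Among tenocyte markers 6 of 9 were lower, against 52.4% of all genes. Kera was at -1.41 and Tnmd at -0.98, but the immediate early gene Egr1 was at 2.22. The summed signals of the tenocyte markers were 2432 and 2461, of which Thbs4 held 40.6% and 50.5%. The other tenocyte genes summed to 1446 and 1217.7, and these include Egr1, with deposited values of 20.9 and 305.6. Macrophage markers were higher in 10 of 10 genes, against 8765 of 18498 among all genes, with a median of 0.72. Lgals3 was at 1.32, Lyz2 at 1.22 and C1qc at 0.91, and the summed signals of the list were 3405 and 7571. Endothelial and mural markers, whose cells also make type IV collagen, were higher in 8 of 10 and 7 of 10 genes. Among all genes 8765 of 18498 were higher. The medians of these 2 lists were 0.06 and 0.16, and their summed signals were 5477 and 5855, and 2628 and 3597. Fabp4 alone held 89.2% and 86.2% of the endothelial sums, and the other genes summed to 589.1 and 806.1. Cldn5 and Tagln led these lists at 0.83 and 0.68. Muscle stem cell (8 genes), Schwann cell (5), adipocyte (5) and myofibre (10) markers had medians of 0.10, 0.10, 0.07 and -0.06. Their summed signals were 620.9 and 797.5, 292.7 and 309.5, 815.4 and 930.6, and 292943 and 219294. Adipoq held 69.5% and 76.4% of the adipocyte sums, and the other adipocyte genes summed to 248.5 and 219.4. All these sums carry the deposited scale, whose slopes were 1.27 and 0.939. On it the myofibre gene Ckm had values of 47282.5 and 35711.4, with scanner values of 37192 and 38087 and a log2 ratio of 0. No measured marker of these lists was below background on both arrays.

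The direction was the same in all 10 computations for 23 lower and 5 higher chains (Col4a1, Col4a2, Col5a3, Col7a1 and Col12a1). Subtraction of the local background column put 25 of 43 chains below 0, against 47.5% of all genes. It set Col1a2 at -0.55, Col3a1 at -6.84 and Col6a1 at 0.19. Spots left below 1 by that subtraction were set to 1, and the other 9 computations put Col3a1 between -1.30 and -0.82.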

How the data were processed

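Total RNA of 1 control and 1 depleted gastrocnemius was amplified, coupled to Cy5 and hybridised to 1-colour arrays, per the labels' protocols. The deposited scanner intensity is each spot's median pixel at 635 nm, joined from 3 scan gains, without background subtraction, per the file headers. The authors' processed intensity table is, on each array, a straight line through the scanner values (slopes 1.27 and 0.939, after subtraction of 36.2 and 37.0, about the mean of the blank spots); its empty cells were set to the lowest listed value, 1.2. For the scanner, its software and the genome build, names were not given in the sources used here.

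Spot medians were corrected with limma 3.58.1 (normexp, offset 50) in R 4.3.3, then log2-transformed and quantile-normalized across 23473 probes. Each gene took the value of its brightest probe (6 collagens had several). Above background means over the mean of 2736 blank spots plus 2 SD, 37.4 on the control and 38.5 on the depleted array, and 92.6% and 92.8% of probes passed. A value below it was raised to the lowest value above it. Called means at least 2-fold apart, with 1.5-fold beside it. Of all probes 20690 have 1 gene symbol, 0 several and 2783 none, and all 50 collagen probes matched the RefSeq table (GRCm38.p6) by Entrez gene, with 0 symbols changed. Promoter windows are RefSeq's, GRCm38.p6.

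With 1 array per group no test was run, and precision is limited by how few arrays there are. Members and lists were chosen with earlier results of these data known. The rule for named genes was every collagen chain, up to 6 members of each related list and up to 3 of each marker list by size of ratio. The normalization was tested on simulated arrays in which only probes well above the blank spots were changed. That test does not cover the dimmer chains. Tables and plots used Python 3.11.15, numpy 2.4.6, pandas 2.3.3 and matplotlib 3.10.9.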

Additional observations from a re-analysis of the deposited data

How the results depend on the processing

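No paired analysis was possible because there was only 1 array for each condition. A median is said to move where it changes by more than 0.15, the larger SD of the log2 ratio over repeated positive control spots, and the cause was not tested except where the construction shows it. Chains at least 2-fold lower (3) numbered 6 with the blank spots subtracted, with the local background column subtracted and in the authors' processed values. They numbered 1 with scaling to the median, and by construction 7 at 1.5-fold and 0 at 3-fold. Of all 18498 genes, 79 were at least 2-fold lower. That count was 360 with the blank spots subtracted, 2021 with the local background subtracted, 397 in the authors' processed values and 38 with scaling to the median. Chains at least 2-fold higher (0) numbered 2 with the local background subtracted, where 1940 of all genes were as much higher. Chains lower (34) numbered 18 among the 22 brighter chains, by construction, and from 33 to 36 under the other alternatives apart from the local background (25) and the 41 chains above background on both arrays (32). With the blank spots subtracted and in the authors' processed values, which carry no offset, medians were -0.38 and -0.40 for all collagens, -0.60 and -0.60 for fibrillar, -0.32 and -0.31 for type IV, -0.71 and -0.71 for type VI, -0.30 and -0.40 for FACIT, -0.24 and -0.23 for other chains and -0.29 and -0.29 for synthesis regulators. With the local background subtracted, medians were -0.55 for fibrillar chains, -0.24 for synthesis and processing, 0.32 for receptors and -0.33 for regulators, and Col18a1 reversed to -1.15. Over brighter genes the medians of fibrillar (-0.78) and type VI chains (-0.88, over 2 chains) were lower, with the same values by the brighter array or by the mean of both arrays, a choice made after seeing the data. The fibril-associated list was at -0.16 with scaling to the median and -0.20 with spot medians scaled to the median. Counting types VII, XV and XVIII with type IV moved no median. Of 953 values of single genes under the alternatives, 904 stayed on the same side of 2-fold, 14 no longer passed it, 34 newly passed it and 1 reversed. Signal over background limits the dim chains, as the median probe lay 17.1 and 22.8 units above the blank spots.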
